A study of Mus musculus with 4 samples.

Results

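The EGF receptor ligands and receptors comprised 10 genes: 6 ligands of EGFR (Areg, Ereg, Hbegf, Egf, Btc and Tgfa), the neuregulin gene Nrg1, and 3 receptors (Egfr, Erbb2 and Erbb3). They were chosen by name, as every probe of the scanner table annotated to one of these symbols, which gave 18 of 45281 probes. A probe was tested when its detection p was under 0.05 on at least 2 of the 4 arrays. That left 10 of the 18 probes and 7 of the 10 genes, among 13906 genes tested in all. Ereg, Tgfa and Erbb3 had no tested probe.

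The samples were large tumours (L, 4 to 5 mm across) and small tumours (S, at most 2 mm) of the small intestine, taken from the same 2 ApcMin/+ mice, which were 30 weeks old and on the C57BL/6J background. The Min allele truncates Apc, a brake on Wnt signalling, and both sizes of tumour carried it; no normal mucosa and no wild-type mouse was analysed here. Each array held the RNA of a pool of 3 whole tumours, with 1 pool per size and mouse, so that 2 arrays stood for each size and the mouse number paired them. The comparison asked which transcripts differed with tumour size, in a study whose title names trefoil factor 2 and tumour enlargement.

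EGFR and its relatives ERBB2, ERBB3 and ERBB4 are receptor tyrosine kinases of the cell surface that signal in pairs. Their ligands are made as membrane-anchored precursors and are cut free by proteases of the ADAM family; the receptors then act through the RAS to ERK cascade and through PI3K. In the mouse intestine this pathway supports proliferation of crypt cells, and lowered EGFR activity is known to reduce the number of adenomas in ApcMin mice.

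In GRCm38.p6 the protein-coding genes of the ligands Epgn, Ereg, Areg and Btc follow each other in this order on chromosome 5. The 250 bases before the start of Areg and of Btc are shown because these neighbouring ligand genes had different patterns across the pools. They are the RefSeq sequences of GRCm38.p6, at chr5:91139349-91139598 on the plus strand for Areg and chr5:91402995-91403244 on the minus strand for Btc. Capitals mark matches, on either strand, to the CRE motif TGACGTCA, the AP-1 motif TGANTCA, the TCF motif CTTTGAT, the SP1 motif GGGCGG and the TATA motif TATAAA, which do not overlap here.
Areg: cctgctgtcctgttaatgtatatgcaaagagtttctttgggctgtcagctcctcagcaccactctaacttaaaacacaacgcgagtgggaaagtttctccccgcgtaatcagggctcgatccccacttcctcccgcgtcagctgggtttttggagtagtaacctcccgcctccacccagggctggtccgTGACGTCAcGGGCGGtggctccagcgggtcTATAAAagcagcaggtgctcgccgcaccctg
Btc: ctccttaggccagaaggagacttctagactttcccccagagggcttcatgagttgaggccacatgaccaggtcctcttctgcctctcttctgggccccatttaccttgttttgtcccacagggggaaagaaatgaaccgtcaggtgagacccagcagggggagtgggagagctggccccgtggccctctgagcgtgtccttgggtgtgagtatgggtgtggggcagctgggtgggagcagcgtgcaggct
The Areg window held a CRE match whose first base lay at -61, an SP1 match at -52 and a TATA match at -31, counted from the start of the gene. Among all 32851 windows of this length in the table, 1.55% held the CRE letters, 32.7% the SP1 letters and 12.4% the TATA letters. The Btc window held no match to these motifs, and neither window held the AP-1 letters (6.75% of windows) or the TCF letters (3.21%). The window of Epgn is not shown, and Hbegf had no window among those searched. Whether the motifs had a part in the patterns across the pools was not tested.

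Between 18969 and 19990 probes were detected per array. The small pool of mouse 2 stood apart, with Pearson correlations across genes of 0.940 to 0.952 with the other arrays, against 0.963 to 0.978 among those; genes are not independent replicates. All 10 epithelial markers were tested, led by the keratins Krt8 and Krt19, and 2 were higher and 7 lower in L in both mice. Of all genes 30.7% were higher and 26.7% lower in both. Among the higher markers, Epcam was detected in the large pools alone and entered through them, which fixes its direction. In bulk tumour RNA, fewer cells of a type and less RNA per cell cannot be told apart. With limma and without the mouse as a block, no probe passed at an adjusted p of 0.05 (percent called 0), while 1563 had an unadjusted p under 0.05. With the mouse as a block 120 of 20214 probes passed (0.594%). An exact permutation test of 2 against 2 arrays cannot go below p = 0.333 (two-sided), so no such test was made.

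No ligand or receptor passed the limma test, with or without the mouse as a block, and none had an unadjusted p under 0.05 in either fit. The limma adjusted p of the 7 tested genes ran from 0.681 to 0.913 without the block and from 0.511 to 0.923 with it. None was at least 2-fold higher in L in both mice, as 0.942% of all genes were, and none at least 2-fold lower, as 0.798% were. Egf was detected in the small pools alone and entered the tests through them, which fixes its direction, so it is left out of the counts that follow. Of the 6 other tested genes, all detected on every array, 2 (Nrg1 and Egfr) were lower in L in both mice, 1 (Erbb2) was higher in both, and 3 (Areg, Hbegf and Btc) differed in opposite directions. Of all genes 26.7% were lower in both mice, 30.7% were higher in both and 42.5% went opposite ways. Both L pools lay above both S pools for 0 of the 6, against 22.2% of all genes. The highest pool was S of mouse 1 for 3 of the 6 (17.6% of all genes), S of mouse 2 for 2 (33.9%), L of mouse 2 for 1 (28.4%) and L of mouse 1 for 0 (20.2%). The median log2 difference, L minus S, was -0.49 in mouse 1 and -0.09 in mouse 2 for the 6 genes, against 0.03 and 0.01 for all genes.

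**Figure D1:**
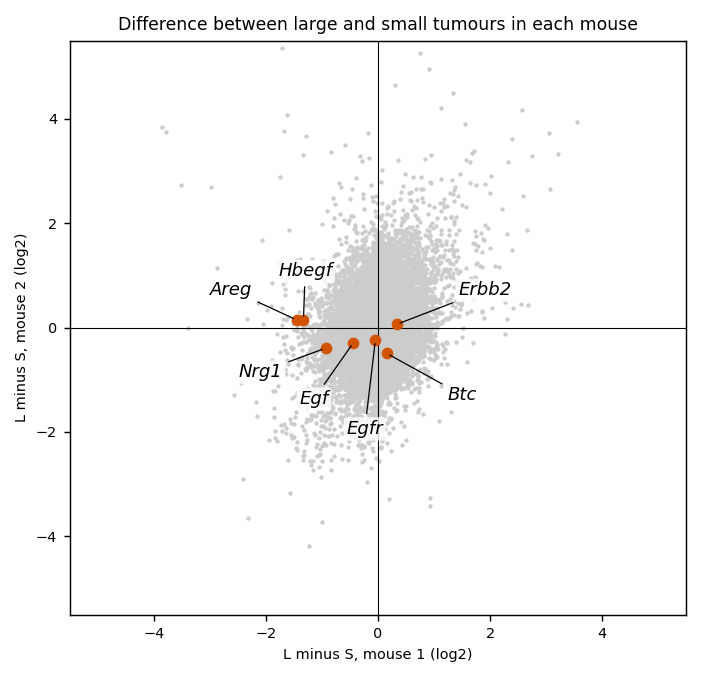
Log2 difference between large and small tumours in mouse 1 (x axis) and in mouse 2 (y axis) for all 13906 tested genes (grey) and the 7 tested ligands and receptors (orange). Areg and Hbegf lie close together at the left, at -1.45 and -1.33 in mouse 1, and both lie near 0 in mouse 2.

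Areg encodes amphiregulin, an EGFR ligand of the intestinal epithelium and of immune cells. Its bead signal was 794 in L of mouse 1 and 1142 in L of mouse 2, against 2189 in S of mouse 1 and 1131 in S of mouse 2. The small pool of mouse 1 was the highest and the other 3 pools lay closer together, so the sizes overlapped. After background correction and normalization, Areg averaged 9.87 ± 0.28 (log2, SD, n = 2) in L and 10.52 ± 0.85 (SD, n = 2) in S. The log2 difference, L minus S, was -1.45 in mouse 1, or 2.73-fold lower in L, and 0.15 in mouse 2. Over both mice it was -0.65 (SE 0.44, limma adjusted p = 0.721). Of all genes, 0.647% had a difference in mouse 1 as low as that of Areg or lower. The beads of an array gave the Areg signal with a standard error of 3.13% to 5.31%, which leaves out the spread between tumours.

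Hbegf encodes heparin-binding EGF-like growth factor, which binds EGFR and ERBB4. Its signal was 222 in L of mouse 1 and 233 in L of mouse 2, against 482 in S of mouse 1 and 242 in S of mouse 2. As for Areg, the small pool of mouse 1 was high and the other 3 pools were close to each other. On the normalized log2 scale Hbegf averaged 7.61 ± 0.05 (SD, n = 2) in L and 8.20 ± 0.99 (SD, n = 2) in S. The log2 difference was -1.33 in mouse 1, or 2.52-fold lower in L, and 0.15 in mouse 2. Both Areg and Hbegf were thus among the 2.5% of genes that were at least 2-fold lower in L in mouse 1. Over both mice the difference of Hbegf was -0.59 (SE 0.47, limma adjusted p = 0.754).

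A single array set both differences. Without the small pool of mouse 1, the log2 difference over the remaining arrays was -0.05 for Areg and 0.11 for Hbegf. Leaving out S of mouse 2 instead gave -1.25 for Areg and -1.29 for Hbegf. Between the small pools, mouse 2 minus mouse 1, Areg differed by -1.20 and Hbegf by -1.41, whereas between the large pools they differed by 0.39 and 0.08. The profile of Hbegf over the 4 arrays, centred on its mean, lay at a root mean square distance of 0.13 (log2) from that of Areg, rank 12 among 13905 other genes; this pair was set side by side after its values had been seen.

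**Figure D2:**
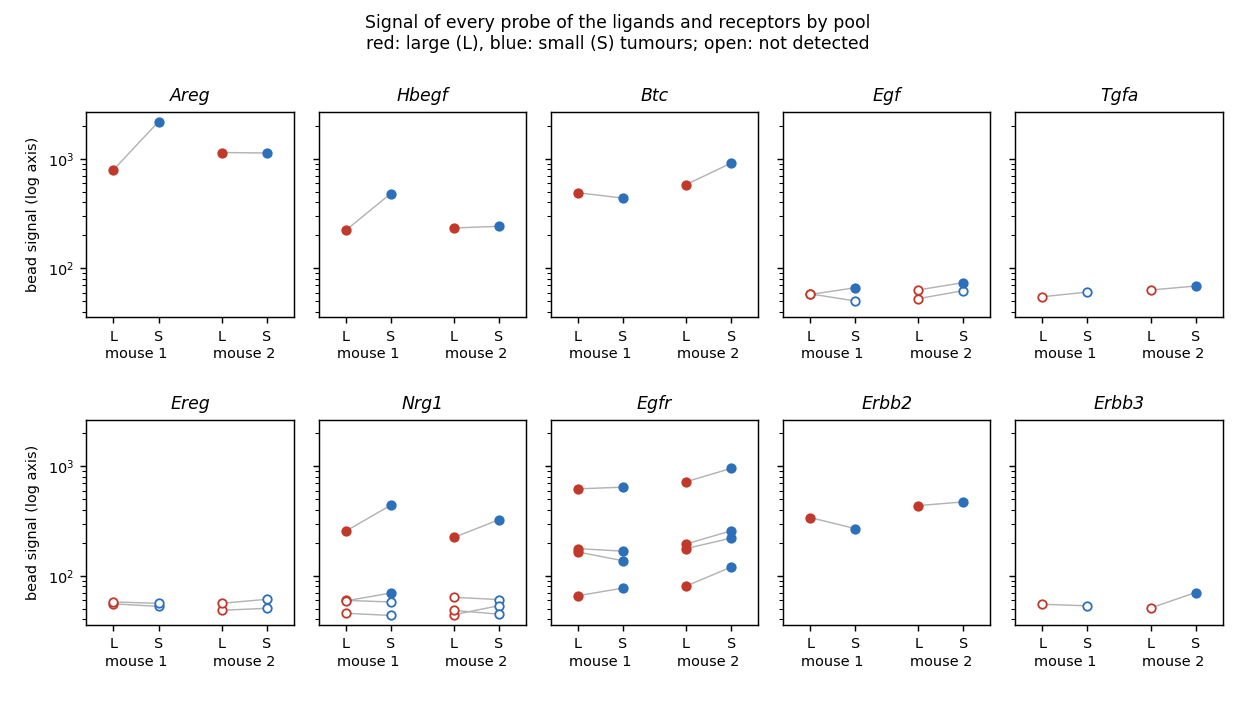
Uncorrected bead signal (log axis) of each of the 18 probes of the ligands and receptors in large (L, red) and small (S, blue) tumours of each mouse; grey lines join the pools of a mouse and open points were not detected. The Areg and Hbegf points of S in mouse 1 stand above the other 3, and the probes of Ereg lie among undetected signals on every array.

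Btc encodes betacellulin, a ligand of EGFR and ERBB4. Its signal was 490 in L of mouse 1 and 581 in L of mouse 2, against 438 in S of mouse 1 and 916 in S of mouse 2. Here the small pool of mouse 2 was the highest. The normalized log2 level was 8.90 and 9.10 in L (SD 0.14, n = 2), against 8.75 and 9.59 in S (SD 0.59, n = 2). Mouse 1 had a log2 difference of 0.15 and mouse 2 of -0.49, with a mean of -0.17 (SE 0.36, limma adjusted p = 0.913). The mean was 0.25 when the small pool of mouse 2 was left out. Markers of absorptive enterocytes were also high in that pool: 7 of the 9 tested were highest there, against 33.9% of all genes. The summed normalized intensity of those 9 was 17395 and 41899 in L, against 29715 and 64025 in S, with 8 of the 9 lower in L in both mice. Apoa1 and Sis had the highest means, Apoc3 alone passed limma with the mouse block (adjusted p = 0.0355), and the probes of Fabp1 and Fabp2 were not detected. Whether enterocyte content had a part in the Btc values was not tested.

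Egf, which encodes epidermal growth factor itself, had 2 probes near background. The tested probe had signals of 57.7 in L of mouse 1 and 63.4 in L of mouse 2, against 66.4 in S of mouse 1 and 73.9 in S of mouse 2. It was detected in both small pools and in neither large pool. Because it entered the tests through the small pools, the order of the 2 sizes is no result, and no least fold is given. The measured means were 4.62 ± 0.19 (log2, SD, n = 2) in L and 4.99 ± 0.08 (SD, n = 2) in S, and the difference of -0.36 did not pass the test (limma adjusted p = 0.755). It became -0.16 once the offset was raised to 50 and -0.20 on uncorrected signals. The other Egf probe was not detected on any array.

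Tgfa, which encodes transforming growth factor alpha, had a single probe with signals of 54.9 and 63.3 in L, against 60.6 and 68.8 in S, and was detected only in the small pool of mouse 2. Ereg, which encodes epiregulin, had 2 probes that were not detected on any array, with signals of 48.4 to 57.7 in L and 50.4 to 60.9 in S. No level and no fold is given for these genes.

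Nrg1 encodes neuregulin 1, a ligand of ERBB3 and ERBB4 that mesenchymal cells of the mouse intestine are known to make. The signal of its tested probe was 256 in L of mouse 1 and 224 in L of mouse 2, against 441 in S of mouse 1 and 325 in S of mouse 2. Both large pools lay below both small pools. Among the 6 genes detected on every array this held for 1 (Nrg1), against 17.6% of all genes. Nrg1 averaged 7.71 ± 0.17 (log2, SD, n = 2) in L and 8.37 ± 0.55 (SD, n = 2) in S. Mouse 1 had a log2 difference of -0.94 and mouse 2 of -0.39. The mean of -0.67 (SE 0.36), or 1.59-fold lower in L, had a limma adjusted p of 0.681, and of 0.511 once the mouse was a block. It became -0.27 when S of mouse 1 was left out and -1.06 when S of mouse 2 was. Of the 3 other Nrg1 probes, 2 were not detected on any array and 1 was detected only in the small pool of mouse 1.

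Between the sizes, fibroblast markers ran the other way from Nrg1, and between the mice they ran the same way. Mouse 2 minus mouse 1, Nrg1 differed by -0.78 in S and -0.24 in L. The medians of the tested fibroblast markers were -1.16 in S and -0.90 in L. Of the 12 listed, 10 were tested; 9 of them were higher in L in both mice and 0 lower, and Dcn and Col6a1 had the highest means. With the mouse block 2 passed limma, Lum and Mgp (adjusted p = 0.0439 for each), which are named after their values were seen. Their summed normalized intensity was 13962 and 6750 in L, against 9073 and 4027 in S, and Postn was not detected. The difference between the mice was not particular to fibroblast markers. Mouse 2 minus mouse 1, the medians were -1.37 in S and -1.29 in L for smooth muscle markers. They were -1.19 and -0.71 for T and NK cell markers, and 1.24 and 1.07 for enterocyte markers. Between the sizes, the median of T and NK cell markers, L minus S, was -1.02 in mouse 1 and -0.36 in mouse 2. The part of fibroblasts and of these other cells in the Nrg1 values was not tested. The 3 genes outside the ligands and receptors whose profile over the 4 arrays lay closest to that of Nrg1 were 8030462N17Rik (root mean square distance 0.05, log2), Wdr92 (0.05) and Rnase6 (0.06). Their differences were -0.88, -0.80 and -1.06 in mouse 1 and -0.30, -0.43 and -0.30 in mouse 2.

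Egfr, the receptor of the EGFR ligands above, was read by 4 probes, all detected on every array, which share 2 target identifiers. The brightest had signals of 623 in L of mouse 1 and 723 in L of mouse 2, against 645 in S of mouse 1 and 958 in S of mouse 2. The sizes were close in mouse 1 and the small pool of mouse 2 was the highest. The log2 level was 9.29 and 9.42 in L (SD 0.09, n = 2), against 9.34 and 9.66 in S (SD 0.22, n = 2). Mouse 1 had a log2 difference of -0.05 and mouse 2 of -0.24, with a mean of -0.14 (SE 0.30, limma adjusted p = 0.910). The mean was 0.02 when the small pool of mouse 2 was left out and -0.30 when that of mouse 1 was, and it was -0.23 with median scaling or with the probes averaged. The 4 probes gave differences of -0.55 to 0.29 in mouse 1 and of -0.68 to -0.15 in mouse 2, so they differed in sign in mouse 1 and shared a sign in mouse 2. All 4 were higher in S of mouse 2 than in S of mouse 1, by 0.32 to 0.84 (log2).

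Erbb2, the receptor that has no ligand of its own and pairs with the others, had signals of 340 in L of mouse 1 and 438 in L of mouse 2, against 270 in S of mouse 1 and 473 in S of mouse 2. The small pool of mouse 1 was the lowest, and the sizes overlapped. Erbb2 averaged 8.48 ± 0.24 (log2, SD, n = 2) in L and 8.28 ± 0.43 (SD, n = 2) in S. Mouse 1 had a log2 difference of 0.33 and mouse 2 of 0.06, with a mean of 0.20 (SE 0.34, limma adjusted p = 0.890). Its sign in mouse 2 turned with median scaling in place of quantile normalization (-0.08), and that over both mice without the small pool of mouse 1 (-0.11). Erbb3, the receptor of NRG1 with weak kinase activity, had a single probe, with signals of 54.9 and 50.7 in L, against 53.1 and 70.3 in S, detected only in the small pool of mouse 2.

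**Figure D3:**
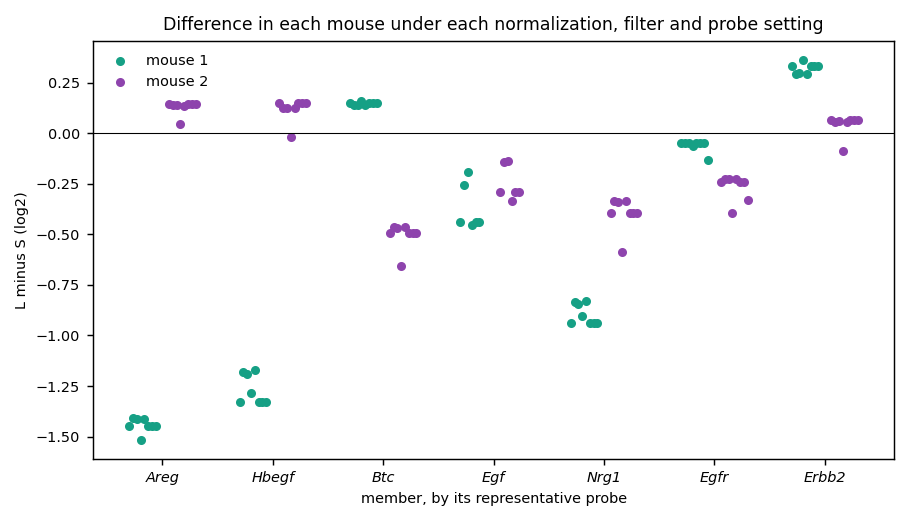
Log2 difference, L minus S, of each tested ligand and receptor in mouse 1 (green) and mouse 2 (purple); each point is 1 background, normalization, filter or probe setting (8 per gene, 6 for Egf). Mouse 1 differences of Areg and Hbegf stay between -1.52 and -1.17 over these settings, and the points that cross 0 are Hbegf and Erbb2 in mouse 2 with median scaling. Areg and Hbegf had 1 probe each, so the filter and probe settings could not move their points.

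The rest of the pathway was read from 6 lists, and no listed gene passed limma in either fit. None had a 2-fold difference of 1 sign in each mouse. Adam17 and Nrg4 are named after their values were seen. Among the other ligands and receptor, 2 of 5 were tested. Epgn, the neighbour of Ereg that encodes the EGFR ligand epigen, had normalized log2 levels of 5.10 and 5.42 in L, against 6.18 and 5.48 in S. L minus S came to -1.07 in mouse 1 and -0.06 in mouse 2, so it was also highest in the small pool of mouse 1. The mouse 1 value became -0.60 in the authors' matrix, -0.64 once the offset was raised to 50 and -0.61 on uncorrected signals. Nrg4, a ligand of ERBB4, had log2 levels of 5.14 and 6.93 in L, against 5.49 and 6.96 in S, and differed more between the mice than between the sizes. When the probes of Nrg4 were averaged, L minus S was -0.35 in mouse 1 and 0.17 in mouse 2. Erbb4 was not detected on any array.

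Of 7 tested genes for ligand shedding, 3 were higher and 0 lower in L in both mice. Adam17, the main protease that frees EGFR ligands, had log2 levels of 8.61 and 8.56 in L, against 8.61 and 8.69 in S. When the probes of Adam17 were averaged, L minus S was -0.06 in mouse 1 and -0.48 in mouse 2. The largest difference of 1 sign was that of Adam15, another ADAM protease, at 0.38 in mouse 1 and 0.76 in mouse 2. Its mean was 0.57 (limma adjusted p = 0.721), and when its probes were averaged the mean was 0.06 and the sign in mouse 1 turned (-0.12). Adaptors and the RAS to ERK cascade had 17 tested genes, of which 3 were higher and 2 lower in L in each mouse and 12 went opposite ways. Hras, a RAS gene, led this list, with 0.03 in mouse 1 and 1.15 in mouse 2. With its probes averaged, the sign of Hras in mouse 1 turned (-0.02).

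The PI3K arm had 10 tested genes, 3 higher and 5 lower in L in each mouse. Among the higher ones, Akt1 and Akt2 were detected in the large pools alone. They entered the tests through those pools, which fixes their direction. Irs2, an adaptor between insulin-family receptors and PI3K, had log2 levels of 6.12 and 5.93 in L, against 7.10 and 7.07 in S. Both large pools lay below both small ones, as they did for 17.6% of all genes. The difference was -0.99 in mouse 1 and -1.14 in mouse 2 (limma adjusted p = 0.588, or 0.213 with mouse as a block). It was -0.71 and -0.80 on uncorrected signals, and -0.71 and -0.81 in the authors' matrix. Receptor inhibitors and feedback genes had 13 tested, 4 higher and 6 lower in L in each mouse. Lrig3, of a family of membrane proteins that includes inhibitors of ERBB receptors, differed by -0.55 and -0.91 (limma adjusted p = 0.634 without the block). Errfi1, which encodes the feedback inhibitor MIG6 and was named after its values were seen, differed by -0.82 in mouse 1 and -0.07 in mouse 2. Its mean of -0.44 was -0.09 without S of mouse 1.

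**Figure D4:**
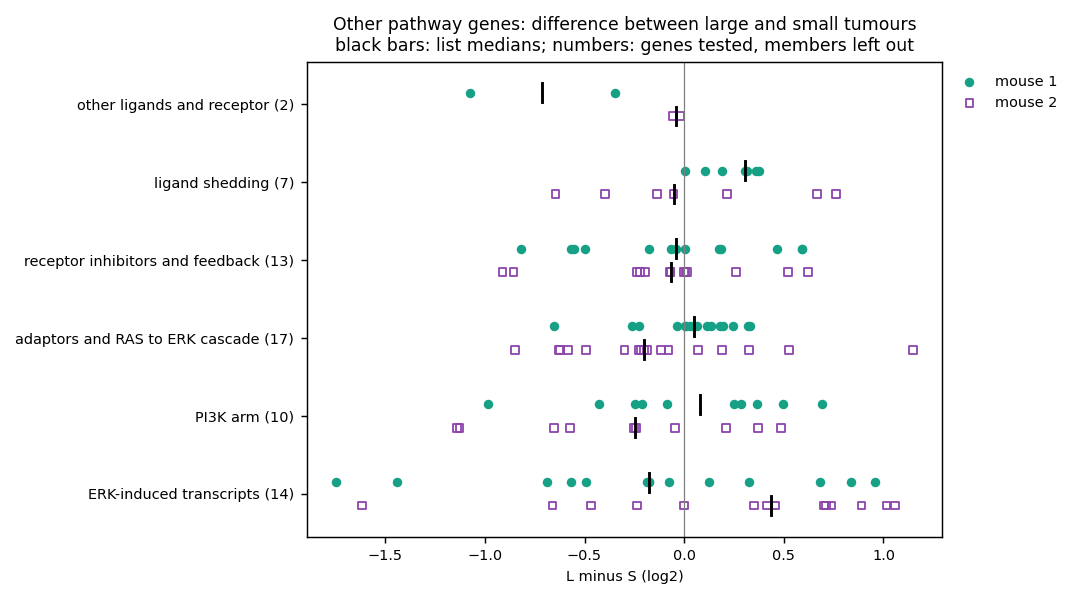
Log2 difference, L minus S, of the tested genes of each pathway list in mouse 1 (filled circles) and mouse 2 (open squares), with the 7 ligands and receptors above left out; black bars are medians. The lowest point is that of Egr1 in mouse 1, at -1.75.

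Transcripts that ERK signalling is known to induce did not share a direction. Areg, Hbegf and Ereg themselves stood on this list; without them 14 of 17 were tested, 4 higher and 4 lower in L in each mouse, and the median was -0.18 for mouse 1 and 0.44 for mouse 2. Of the 14, 8 were highest in the small pool of mouse 1, against 17.6% of all genes. Egr1, an immediate early transcription factor, averaged 10.47 ± 0.10 (log2, SD, n = 2) in L and 11.57 ± 0.81 (SD, n = 2) in S. L minus S came to -1.75 in mouse 1 and -0.47 in mouse 2 (limma adjusted p = 0.605, or 0.256 with mouse as a block). The mean of -1.11 was -0.54 without S of mouse 1 and -1.68 without S of mouse 2. The following 5 genes were named after their values were seen. Egr3, a relative of Egr1, differed by -1.44 and 1.06, and was highest in the small pool of mouse 1 and lowest in that of mouse 2. Dusp6, an ERK phosphatase, differed by -0.57 and -0.24, and by -0.81 and -0.55 with its probes averaged. Etv5, an ETS factor, was higher in L in both mice, by 0.84 and 0.89, as were its relative Etv4 (0.96 and 0.46) and the phosphatase gene Dusp4 (0.68 and 0.70). With probes averaged, Dusp4 differed by 0.18 and 0.14 and Etv5 by 0.62 and 0.58, and with median scaling Etv4 differed by 0.30 in mouse 2.

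**Figure D5:**
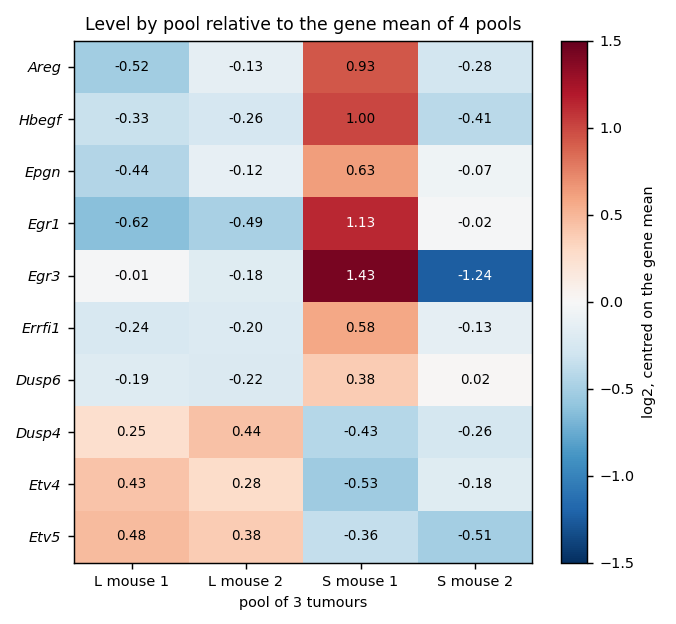
Normalized log2 level of Areg, Hbegf and 8 other pathway genes in each pool of 3 tumours, relative to the gene's mean over the 4 pools (red above, blue below). Areg, Hbegf, Epgn, Egr1, Egr3, Errfi1 and Dusp6 are highest in S of mouse 1 (0.38 to 1.43), while Dusp4, Etv4 and Etv5 are above their means in both L pools.

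Macrophage and T cell markers were mostly highest in the small pool of mouse 1 as well, and neutrophil and mast cell markers were not. Of 8 tested macrophage markers 7 were highest there, and of 6 tested T and NK cell markers 5 were, against 17.6% of all genes. This was not particular to them: 4 of 7 goblet cell markers and 2 of 2 B and plasma cell markers were also highest there. Of the fibroblast markers 1 of 10 was, and of the enterocyte markers 1 of 9. The summed normalized intensity of the macrophage markers was 3162 and 2119 in L, against 3670 and 1491 in S, and that of the T and NK cell markers was 1036 and 571 in L, against 1118 and 469 in S. The highest means were those of C1qb and C1qc and of Prf1 and Cd3g, and Itgam, Cd8a and Cd4 were not detected. Prf1 was the tested T and NK cell marker that was not highest in S of mouse 1, and it weighs most in their sum. It was higher in L by 0.81 in mouse 1 and 1.40 in mouse 2, whereas 4 of the 6 were lower in L in both mice. Of 5 tested neutrophil markers 0 were highest there, and 4 were higher in L in both mice. Their sum was 3442 and 4443 in L, against 1377 and 942 in S. S100a8 and S100a9 had the highest means, and with the mouse block they and Retnlg passed limma (adjusted p of 0.0206 for S100a8, 0.0218 for S100a9 and 0.0437 for Retnlg). With that block 0.594% of all probes passed. Mast cell markers, of which 0 of 5 were highest in that pool, summed to 701 and 630 in L, against 550 and 348 in S, with 3 of 5 higher in L in both mice, and Ms4a2 and Mcpt2 were not detected. The part of these cells in the Areg and Hbegf values was not tested.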

How the data were processed

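RNA of 4 tumour pools was hybridised to Illumina bead arrays, 1 array per pool. Per the file headers, the authors exported linear intensity values with no normalization and no background subtraction (gene expression module version 3.2.6; BeadStudio per the submitters' processing notes), with a detection p-value per probe. A second deposited file held the authors' normalized intensity values of 15274 probes, equal to 4 decimals to the series value table; its scale was linear, its columns had medians of 270.1 to 270.7, and no source used here gives its normalization. An example sheet was not used.

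Background correction and normalization used limma's neqc function (limma 3.58.1, R 4.3.3; normexp from detection p-values, offset 16, quantile normalization, log2). Symbols were updated through RefSeq names (GRCm38.p6); the files name no build. Of several tested probes of a gene, the brightest on average stood for it. L was compared with S by lmFit and eBayes (two-sided, Benjamini-Hochberg over all 20214 tested probes), without the mouse as a block; the block was an alternative. The labels pair the pools by mouse: across genes, mouse 2 minus mouse 1 in S and in L had a correlation of r = 0.251. Without the block, the p-values rest on the spread between 2 animals within each size. With it, they rest on how far the L minus S difference varied between the animals. Both fits also draw on the variance of all tested probes, with prior degrees of freedom of 5.03 without the block and 12.8 with it. The residual degrees of freedom were 2 and 1. The fit was tested on simulated data. From each pathway list, genes that passed were to be named, then up to 3 that were 2-fold apart in both mice, or else the gene with the largest difference of 1 sign. The genes, lists and rules were chosen with earlier results of these data known. Precision is limited by the number of arrays. Of each marker list, the 2 detected genes with the highest means were to be named.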

Additional observations from a re-analysis of the deposited data

How the results depend on the processing

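No ligand or receptor was called under any of the alternatives, and none was 2-fold apart in 1 direction in both mice; leaving out 1 array gives no value for the second count. The number of probes called in all was 0, and it was 2 with median scaling, 2 with the strict filter (detection p under 0.01 on all arrays), 120 with the mouse as a replicate block, 110 with the block and an eBayes trend, and 0 to 70 with 1 array left out (70 without L of mouse 1, 19 without L of mouse 2). With the block, 36 were called with the authors' matrix and 0 with no background correction, 2 alternatives chosen after seeing the data. The markers named above as passing with the block therefore did not pass without background correction. The block changed no call of a ligand, receptor or listed pathway gene. Genes 2-fold apart in 1 direction in both mice numbered 242, against 128 after raising the offset to 50, 126 when background was left uncorrected and 115 from the authors' matrix. With 1 array left out, the log2 difference ranged from -1.29 to 0.11 for Hbegf, -0.11 to 0.51 for Erbb2 and -1.52 to 1.14 for Egr3, each turning sign without S of mouse 1. It ranged from -0.59 to 0.25 for Btc and -0.30 to 0.016 for Egfr, turning sign without S of mouse 2, and from -1.08 to 0.71 for Nrg4, turning sign without L of mouse 1 and without S of mouse 2 (0.55). Areg and Nrg1 kept their sign under all alternatives that gave a value, as did Egf, whose direction was fixed by its detection in the small pools. The count of 8 ERK-induced genes highest in S of mouse 1 was the same under each alternative that gave it. The block and the eBayes trend reuse the same values, so they could not change this count or the counts of 2-fold differences. Ereg, Tgfa, Erbb3 and Egf lay at background, which limits what their probes show.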
